A study of Danio rerio with 36 samples.

Results

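The comparison of dnmt1-/- with wild-type whole fish covered 6 of the 18 fish of the series, 3 of each genotype, and 12 of its 36 libraries. These fish were chosen by their labels alone: whole embryo, genotype dnmt1-/- or wt (dnmt1+/+), mixed background, collected at 18 dpf (days post fertilization). DNA of each fish was read by bisulfite sequencing of the whole genome, a chemistry that turns unmethylated cytosines into thymines in the reads. The remaining libraries of the series came from sperm. The dnmt1-/- fish are homozygous for a viable allele with an amino acid replacement in the catalytic domain of the enzyme, which the study treats as a hypomorph, so that some enzyme activity can remain. DNA came from the whole body, so a change in the level of a cell type and a change in the share of that cell type cannot be told apart.

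Dnmt1 is the maintenance methyltransferase: after replication it copies methylation from the old DNA strand to the new one, at hemimethylated CpG sites to which Uhrf1 brings it. Dnmt3 enzymes add methylation at unmodified sites, and Tet enzymes oxidize it as a step of removal. Most CpGs of a vertebrate genome are methylated, with the exception of CpG-rich regions at many gene starts.

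The deposited values are the fraction of reads methylated at single CpGs, given here as percent. Of 23946533 CpGs listed on 25 chromosomes (danRer10), 48.0% to 51.9% had a value in the single dnmt1-/- fish and 41.1% to 47.5% in the wild-type fish. Unless stated, results rest on the 4820687 CpGs measured in each of the 6 fish. Since only fractions were analysed here, the depth of a single value is unknown and carries no interval. The mean over these CpGs was 54.0%, 54.1% and 54.0% in dnmt1-/- fish, against 82.4%, 82.1% and 82.0% in wild-type fish. The mutants therefore retained 65.8% ± 0.0804 (SD, n = 3 mutants, each against the wild-type mean) of the wild-type level, called the retained share below. The groups did not overlap, and the two-sided exact permutation test gave p = 0.1, and no smaller p is possible between groups of 3. Fish are the replicates. The labels do not say whether fish of a genotype were siblings.

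How much was kept depended on the level in wild type. CpGs at 90-100% in wild type had 67.6% ± 0.183 in dnmt1-/- fish and 94.5% ± 0.158 in wild-type fish (SD, n = 3 each), a retained share of 71.5%. CpGs at 50-60% in wild type had 27.6% ± 0.248 in dnmt1-/- fish and 55.5% ± 0.456 in wild-type fish, and kept 49.7%. Between these bins the share was 50.9% at 60-70%, 54.7% at 70-80% and 62.7% at 80-90%. The 3 mutants lay within 0.5 points of one another at 80% and above. CpGs that were methylated only in part in wild type thus lost the larger proportion, although the loss in percentage points was largest, at -34.3, in the 70-80% bin. In the exact permutation test of each bin relative to the genome, all bins from 20% up gave p = 0.1.

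Placing CpGs in bins by the same wild-type values that serve as the reference draws the extreme bins outward, so the bins were also set from 1 wild-type fish and the level read from the other wild-type fish. The shares were then 71.4% to 71.6% at 90-100% and 49.03% to 49.4% at 50-60%, in the same order as above. The other wild-type fish averaged 91.4% to 91.7% in the first of these bins and 62.3% to 63.3% in the second. The bins thus stand for other wild-type levels than those of the same name above. At 0-10%, in contrast, the share depended on this choice. It was 94.6% with 1.40% in dnmt1-/- fish and 1.48% in wild-type fish when the bins used all wild-type fish, but 53.9% to 59.4% when they used 1. No relative gain or loss is therefore read from CpGs that are nearly unmethylated in wild type.

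Within CpGs of 80% or more in wild type, the loss was spread over a continuum rather than complete at some sites and absent at others. Of 3631773 such CpGs, 15.6% were still at 80% or more in dnmt1-/- fish, 41.3% at 60-80%, 32.4% at 40-60%, 10.1% at 20-40% and 0.606% under 20%. The level that a CpG reached was shared by the mutants. Across these CpGs, Pearson's r was 0.652 to 0.658 between mutants, 0.264 to 0.282 between a mutant and a wild-type fish, and 0.147 to 0.158 between wild-type fish. These values describe CpGs of the same libraries, and the range of the wild-type levels was limited by the choice of CpGs. Neighbouring CpGs were alike over short distances only. Between different mutants, r was 0.325 for CpGs at most 10 bp apart and 0.0529 for CpGs over 5 kb and up to 10 kb apart.

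CpG density set apart the sites that kept methylation. For each CpG, the other listed CpGs within 100 bp on either side were counted. CpGs with no such neighbour had 45.3%, 45.1% and 45.5% in dnmt1-/- fish, against 79.6%, 79.2% and 79.2% in wild-type fish, and kept 57.1% ± 0.206 (SD, n = 3 mutants). CpGs with 20 or more neighbours had 58.5%, 59.3% and 59.0% in dnmt1-/- fish, against 71.6%, 71.2% and 71.4% in wild-type fish, and kept 82.5% ± 0.564. The classes between were in the same order, with 60.5% at 1-2 neighbours, 65.5% at 3-5, 70.1% at 6-9, 74.8% at 10-14 and 79.3% at 15-19. All 3 mutants showed this order, and the difference of 25.4 points between the extreme classes was many times the spread between mutants.

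Density and wild-type level did not stand for each other. Among CpGs at 50-60% in wild type, the share was 40.5% without neighbours and 80.9% with 20 or more. Among CpGs at 90% or more, it was 65.5% and 82.3%. In the densest class, CpGs of every wild-type level from 50% up kept between 80.9% and 83.1%. In these bins, the order by wild-type level was thus seen only at lower densities. The bins were set from the same wild-type values that serve as the reference. The check above with bins set from a single wild-type fish did not divide CpGs by density. How far this choice shaped the order within each density class was therefore not tested. A value was available less often at dense CpGs. At 20 or more neighbours, 31.3% of listed CpGs had a value in a dnmt1-/- fish and 22.9% in a wild-type fish, compared with 58.9% in a dnmt1-/- fish and 58.4% in a wild-type fish at CpGs without neighbours. With each fish read over its own CpGs the difference between the extreme density classes was 24.6 points.

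**Figure D1:**
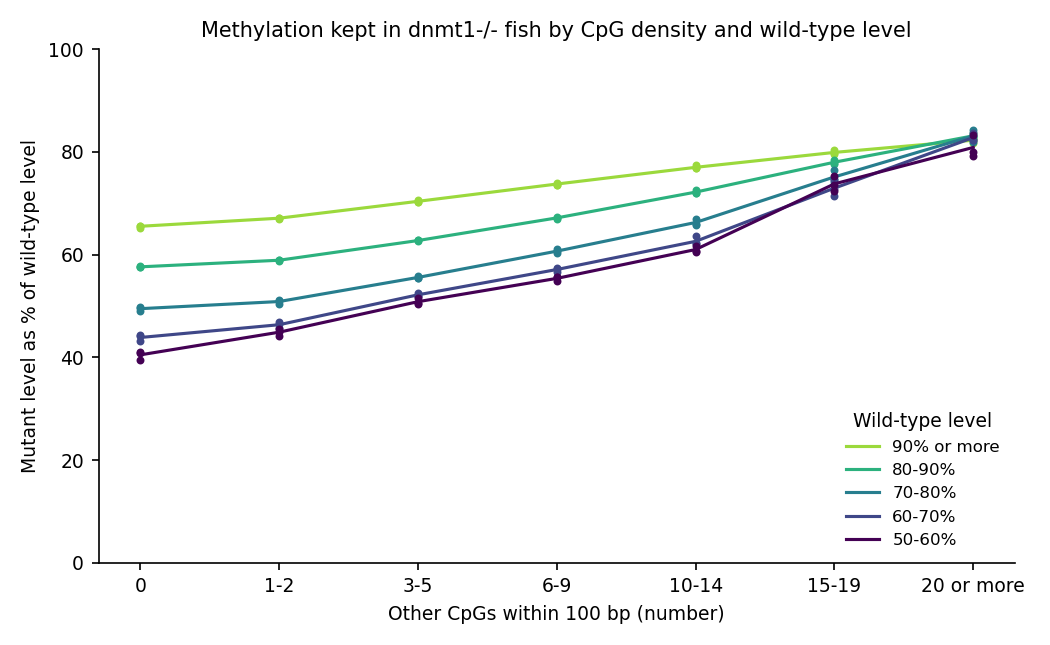
Retained share (mutant mean as percent of the wild-type mean, vertical axis) by the number of other CpGs within 100 bp (horizontal axis) for 5 classes of wild-type level; lines join the means and points are the 3 dnmt1-/- fish. The lines span 40.5% to 65.5% at CpGs without neighbours and meet between 80.9% and 83.1% at 20 or more neighbours.

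The level in wild-type sperm, which was measured in other fish, gave a weaker order. CpGs at 90-100% in wild-type sperm had 57.2% in dnmt1-/- whole fish and 86.8% in wild-type whole fish, a share of 65.97%. Those at 10-20% in sperm had 17.6% in dnmt1-/- whole fish and 30.7% in wild-type whole fish, a share of 57.3%. The 3601 CpGs that were under 10% in wild-type sperm but at 60% or more in wild-type whole fish had 42.8%, 44.9% and 44.7% in dnmt1-/- fish, against 73.6%, 75.6% and 72.7% in wild-type fish. These CpGs, which carry methylation in the body and not in sperm, kept 59.7%, less than the genome. Their wild-type level was also below that of the genome, and the share depended on that level. With bins set from a single wild-type fish, CpGs averaging 72.6% to 73.3% in the other wild-type fish kept 52.1% to 52.5%. Beside CpGs of similar wild-type level, those low in sperm kept more, a difference that was not tested. The sets were chosen from wild-type levels in different ways, and their CpG density was not compared. The part of density in this difference was therefore not tested either.

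To locate losses, limma was run on logit levels of 1 kb windows that held at least 5 measured CpGs, and windows were called at a false discovery rate (FDR, Benjamini-Hochberg) under 5% with a difference of at least 20 percentage points. Of 403104 windows, 81.7% were called lower in dnmt1-/- fish and 0.0062% (25 windows) higher, with 238 higher at an unadjusted p under 0.05. All mutants lay below all wild-type fish in 96.6% of windows and above them in 0.0447%. The 10660 windows under 10% in wild type had a median of 0.635% in dnmt1-/- fish and 1.13% in wild-type fish. None of them could fall by 20 points, and 10 were called higher. Of the windows at 40-60% in wild type 71.7% were called lower, of those at 80-90% 92.2%, and of those at 90% or more 76.0%.

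A second limma test asked which windows kept more or less than the genome-wide share. It used log2 levels relative to the genome mean of each fish, in 374986 windows of 60% or more in wild type, at an FDR under 5% and at least 15 points from 65.8%. It called 29812 windows (7.95%) that kept less and 29817 (7.95%) that kept more. Windows that kept less had a median of 36.8% in dnmt1-/- fish and 80.5% in wild-type fish, with 13 listed CpGs per window. Windows that kept more had 77.9% in dnmt1-/- fish and 93.3% in wild-type fish, with 29 listed CpGs, and windows in neither class had 19. Of windows with 5-10 listed CpGs, 21.6% kept less and 1.42% kept more. Of windows with 51 or more, 0.148% kept less and 47.2% kept more. The split thus followed density in windows as it did at single CpGs. The size of both classes depended strongly on the scale, as only 1039 windows kept less and 2999 more when the logit relative to the median of each fish was used.

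The deposited intervals that were less methylated in mutant sperm overlapped 228573 of the windows. These windows had a median of 59.1% in dnmt1-/- whole fish and 88.6% in wild-type whole fish and kept 67.5%, whereas the 174367 windows outside any sperm interval had 53.4% in dnmt1-/- whole fish and 86.6% in wild-type whole fish and kept 63.9%. Both classes had lost methylation in the body, with 84.1% and 78.7% of windows called lower, and the sperm intervals were also the denser class, with 21 against 16 listed CpGs per window. In the 164 windows of intervals more methylated in mutant sperm, 42.1% were called lower in dnmt1-/- whole fish and 5 higher.

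Chromosomes differed less than density classes. The retained share ranged from 65.0% on chromosomes 4 and 1 to 67.8% on chromosome 22. With limma on levels relative to the genome mean of each fish, at an FDR under 5%, 11 of 25 chromosomes (44%) kept less and 10 (40%) kept more. No minimum difference was set, and limma gave every chromosome the same pooled standard error, so very small differences were called. Chromosome 12 was called as keeping less at 65.71%, and chromosomes 15 and 16 as keeping more at 65.98% and 65.99%, against 65.80% in the genome. The highest were chromosomes 22, 25, 20, 23 and 10, and the lowest were 4, 1, 7, 5 and 14. On chromosome 22 the level was 56.2%, 56.3% and 56.2% in dnmt1-/- fish, against 83.1%, 82.8% and 82.8% in wild-type fish. On chromosome 1 it was 53.2%, 53.2% and 53.2% in dnmt1-/- fish, against 82.1%, 81.8% and 81.6% in wild-type fish. The mutants of chromosome 22 lay above 67.7% and those of chromosome 1 below 65.1%. Over the 25 chromosomes, the share went with the mean number of CpG neighbours (Pearson's r = 0.705, Spearman's rho = 0.615). It went with the wild-type level of the chromosome to a similar degree (Pearson's r = 0.659, Spearman's rho = 0.696). Both describe chromosomes read in the same libraries.

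The share differed more between the ends and the interior of chromosomes than between chromosomes. CpGs within 5 Mb of a chromosome end had 57.3%, 57.5% and 57.4% in dnmt1-/- fish, against 83.1%, 82.8% and 82.7% in wild-type fish, and kept 69.3%. CpGs at 20 Mb or more from the nearer end had 51.2%, 51.2% and 51.1% in dnmt1-/- fish, against 80.8%, 80.5% and 80.4% in wild-type fish, and kept 63.5%. The classes between kept 67.2% at 5-10 Mb and 65.1% at 10-20 Mb. Chromosome ends were richer in CpGs, with 5.97 neighbours per CpG within 5 Mb and 4.22 beyond 20 Mb. At equal density part of the order remained. CpGs with 3-5 neighbours kept 67.8% within 5 Mb and 63.9% beyond 20 Mb, those without neighbours 58.5% and 56.2%, and those with 10-14 neighbours 76.3% and 73.4%. At 20 or more neighbours the shares were 82.8% and 81.5%, with mutant ranges of 82.2% to 83.4% and 80.7% to 82.1%. The wild-type level within 5 Mb and beyond 20 Mb differed as well. It was 83.7% and 81.6% at 3-5 neighbours, 84.7% and 76.9% at 10-14, and 70.3% and 65.7% at 20 or more. Without neighbours it went the other way, with 77.5% and 79.4%. The part of wild-type level in the remaining order was not tested.

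Bins of 1 Mb were tested in the same way as the chromosomes, also without a minimum difference. Of 1341 bins with at least 500 CpGs, 631 (47.1%) kept less than the genome and 564 (42.1%) kept more, with a median share of 65.6% and a range of 57.6% to 75.5%. Within 1 Mb of an end, 54 of 57 bins kept more and 0 kept less. At 20 Mb or more from an end, 275 of 341 kept less and 33 kept more. Across bins, the share correlated with the mean number of neighbours (r = 0.81, rho = 0.84, n = 1341), which shares its CpGs with the level.

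**Figure D2:**
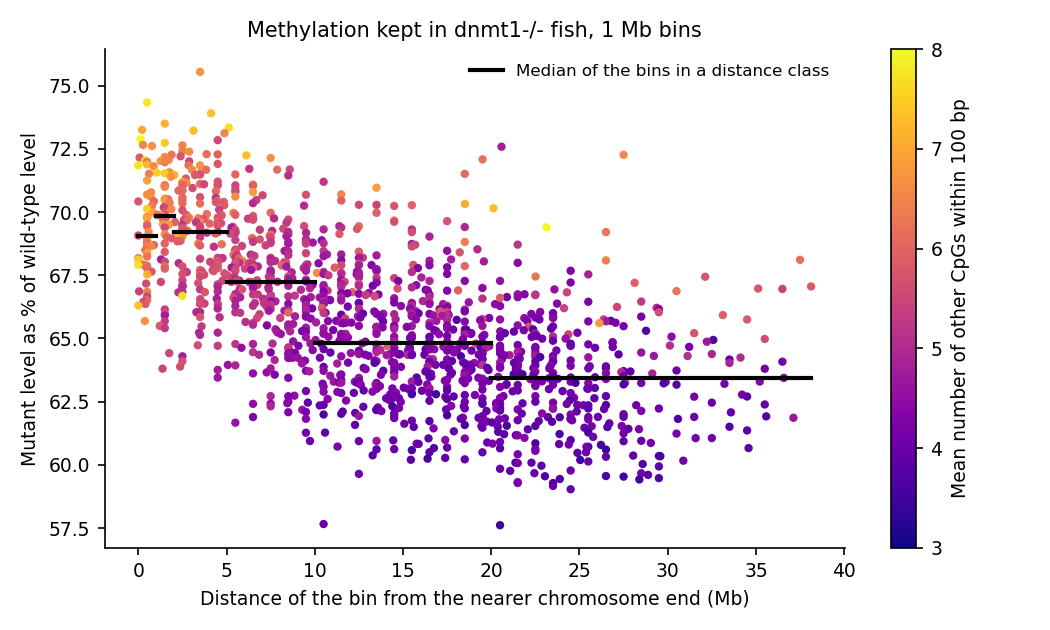
Retained share of 1 Mb bins (vertical axis, mutant mean as percent of the wild-type mean) by distance from the nearer chromosome end in Mb (horizontal axis), each point a bin, coloured by the mean number of other CpGs within 100 bp; black bars are medians of distance classes. The class medians lie between 69.1% and 69.9% within 5 Mb of an end and at 63.4% beyond 20 Mb.

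The bin that kept most was chromosome 22 from 3 to 4 Mb. It had 63.8%, 64.6% and 63.9% in dnmt1-/- fish, against 84.96%, 84.8% and 84.8% in wild-type fish, and kept 75.5% (limma, Benjamini-Hochberg adjusted p = 2.32e-10). It holds uhrf1, the partner that brings Dnmt1 to hemimethylated sites, lmnb2, a lamin of the nuclear envelope, and kdm4b, a histone demethylase. The next were chromosome 22 from 0 to 1 Mb (74.3%), chromosome 4 from 72 to 73 Mb (73.9%), chromosome 20 from 1 to 2 Mb (73.5%) and chromosome 4 from 71 to 72 Mb (73.3%). All 5 lie within 6 Mb of an end.

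The bins that kept least lay well inside chromosomes. Chromosome 4 from 20 to 21 Mb, with cacna1c, a calcium channel subunit of heart muscle and neurons, had 45.6%, 45.8% and 45.4% in dnmt1-/- fish, against 79.4%, 79.1% and 78.9% in wild-type fish, and kept 57.6% (adjusted p = 2.31e-10). Chromosome 4 from 10 to 11 Mb, with wnt16, a Wnt ligand, and kcnd2, a potassium channel, kept 57.7%. Chromosome 8 from 24 to 25 Mb kept 59.0%, chromosome 9 from 23 to 24 Mb, with neb, which encodes the thin filament protein nebulin, 59.2%, and chromosome 4 from 23 to 24 Mb 59.3%. Chromosome 4 therefore held bins near both ends of this ranking, with the lowest bin but not the highest. Its bins under 28 Mb had a median of 63.0% (25 of 28 kept less), and those from 28 Mb on had 66.5% (23 of 43 kept more). A value in all 6 fish was available at 12.04% of the listed CpGs of chromosome 4, fewer than on any other chromosome, and its part in these values was not tested.

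Gene starts were placed from the intervals and their distances in the deposited sperm table, where at least 2 intervals gave the same edge. Of 1151 genes with both edges placed in this way and a RefSeq length, 61.2% had a span within 20% of that length, so the starts are approximate. Around 5186 such starts, methylation dipped in both genotypes. In the 200 bp before the start the level was 18.1%, 18.3% and 18.6% in dnmt1-/- fish, against 31.3%, 30.98% and 31.1% in wild-type fish, a share of 58.9%. At 4.8 to 5 kb before the start it was 54.6%, 54.8% and 54.4% in dnmt1-/- fish, against 83.6%, 83.1% and 83.4% in wild-type fish, a share of 65.5%. The genotypes did not overlap in either bin (exact permutation p = 0.1), and the dip had the same shape in each fish. No dip of this kind was seen around gene ends.

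**Figure D3:**
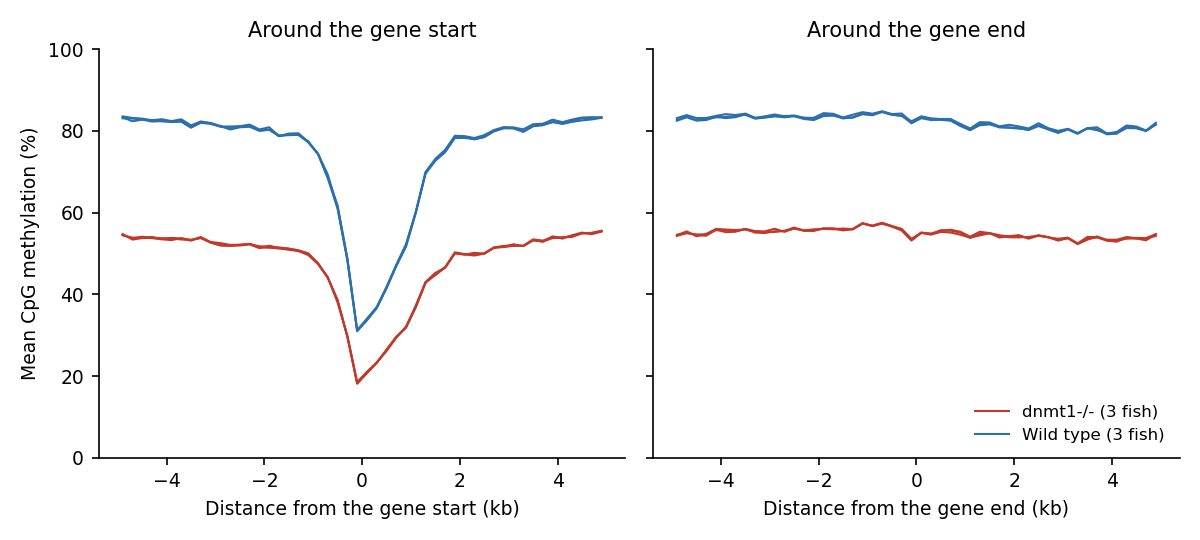
Mean CpG methylation in percent (vertical axis) by distance in kb from the gene start (left) and the gene end (right), negative values lying before the edge; each line is 1 fish, 3 dnmt1-/- and 3 wild type, in 200 bp bins. At the start the dnmt1-/- lines reach 18.1% to 18.6% and the wild-type lines 30.98% to 31.3%.

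Single gene starts were then tested with limma over all CpGs within 500 bp. Of 2188 starts with at least 5 CpGs, 866 (39.6%) were called lower in dnmt1-/- fish and 1 (0.0457%) higher, while 15 were higher at an unadjusted p under 0.05. The 994 starts under 10% and the 114 at 10-20% in wild type could not fall by 20 points, so 39.6% is no measure of how many starts were spared. Without the minimum difference, 1179 starts had an adjusted p under 0.05 (limma), 106 of them under 10% in wild type. The 994 starts under 10% in wild type had a median of 0.461% in dnmt1-/- fish and 0.677% in wild-type fish. They stayed under 10% in the mutants, with 4 exceptions at 10% or more, 1 of them called higher. Of the 595 starts at 80% or more in wild type, 531 were called lower, with a median of 57.9% in dnmt1-/- fish and 88.4% in wild-type fish.

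Starts of listed genes fell into the same classes. The start of runx3, a transcription factor of T cell development, had 44.8%, 51.2% and 45.8% in dnmt1-/- fish, against 80.5%, 84.5% and 81.8% in wild-type fish (adjusted p = 0.000504, limma). The start of csf3r, the receptor of the granulocyte growth factor, had 34.7%, 41.2% and 39.8% in dnmt1-/- fish, against 83.3%, 88.0% and 81.4% in wild-type fish. Neither overlapped, and the starts of ccr7, a chemokine receptor, spi1b, a myeloid transcription factor, and dnmt3aa, a de novo methyltransferase, were also called lower. The starts of tet3, dnmt3ab, runx1, notch1a and nanos1 were at 1.73% or less in each of the 6 fish, and that of tox was at 0 in all. Among the 39 starts of the list of developmental transcription factors, 34 were under 10% in wild type and could not be called lower, and 3 were called lower.

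For genes, all tested windows that overlapped a sperm interval within 5 kb of that gene were pooled, at 10 or more CpGs. Only genes with such an interval could be measured, and their windows outside sperm intervals were left out. Nearly all interval windows came from intervals less methylated in mutant sperm (228573 windows, against 164 of intervals more methylated). Of the former 84.1% were called lower, against 78.7% of windows outside any interval. Gene values thus describe these windows and not whole genes. Of 17493 genes, 16300 (93.2%) were called lower in dnmt1-/- fish, 1 (0.00572%) higher and 1192 neither. The gene median was 59.7% in dnmt1-/- fish and 88.1% in wild-type fish, with a median retained share of 68.3%. In 17465 genes (99.8%), all mutants lay below all wild-type fish. Most genes that were not called had lost less than 20 points rather than nothing, since 1166 of the 1192 had an adjusted p under 0.05 (limma). They had a median of 73.4% in dnmt1-/- fish and 92.0% in wild-type fish, and 27.1 listed CpGs per kb, compared with 20.2 in the genes called lower.

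Relative to the genome, 202 of 17327 genes (1.17%) kept less and 366 (2.11%) kept more. For genes this test was run on the log2 scale only, without any alternative, whereas the same test of windows depended strongly on the scale. The single genes given below as keeping less or more than the genome rest on this scale. Those that kept less had 14 listed CpGs per kb and those that kept more 29.9. Across these 17327 genes, the share and the density had Pearson's r = 0.51, as a description of windows read in the same fish.

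The genes of the lowest and highest share were taken from 13379 genes with a gene name and 60% or more in wild type. They were chosen for their share, so their values describe the extremes, and most rest on few CpGs. tmem86b, which encodes a membrane protein of ether lipid breakdown, had 18.9%, 21.4% and 20.1% in dnmt1-/- fish, against 68.3%, 63.7% and 70.5% in wild-type fish over 19 CpGs (chromosome 3, 16616001-16619000, danRer10), a share of 29.9%. glulc, a glutamine synthetase gene, had 13.6%, 36.5% and 30.99% in dnmt1-/- fish, against 90.7%, 91.6% and 60.2% in wild-type fish over 13 CpGs, with the widest spread of the set. ddit4, a stress-induced inhibitor of mTOR signalling, had 29.1%, 22.1% and 21.4% in dnmt1-/- fish, against 68.6%, 56.6% and 65.6% in wild-type fish. In none of them did the genotypes overlap. The others with the lowest shares were mis18a, a factor of centromere assembly (39.0%), ccdc80l1 (39.4%), hhla2b.2, of a family of immune checkpoint ligands (40.4%), cfap53, a cilia protein (40.4%), and cxcl11.1, a chemokine (40.6%). All 8 were called lower.

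At the other end, tmem169b had 80.7%, 79.6% and 82.6% in dnmt1-/- fish, against 92.5%, 88.0% and 87.8% in wild-type fish over 11 CpGs (chromosome 9, 53068001-53069000), a share of 90.5%. cnbpa, a nucleic acid binding zinc finger gene, had 86.5%, 87.1% and 85.7% in dnmt1-/- fish, against 96.9%, 96.2% and 97.1% in wild-type fish over 22 CpGs, a share of 89.4%. spcs2, a subunit of the signal peptidase, had 84.3%, 85.6% and 85.4% in dnmt1-/- fish, against 95.1%, 97.5% and 95.2% in wild-type fish. Even in these genes each mutant lay below each wild-type fish. The remaining 5 were pdxp (89.7%), ssr3 (89.1%) of the translocon complex, the prohibitin gene phb (88.8%), asb2b (88.7%) and wdr20a (88.6%). None of the 8 reached the 20 points that a call needs.

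**Figure D4:**
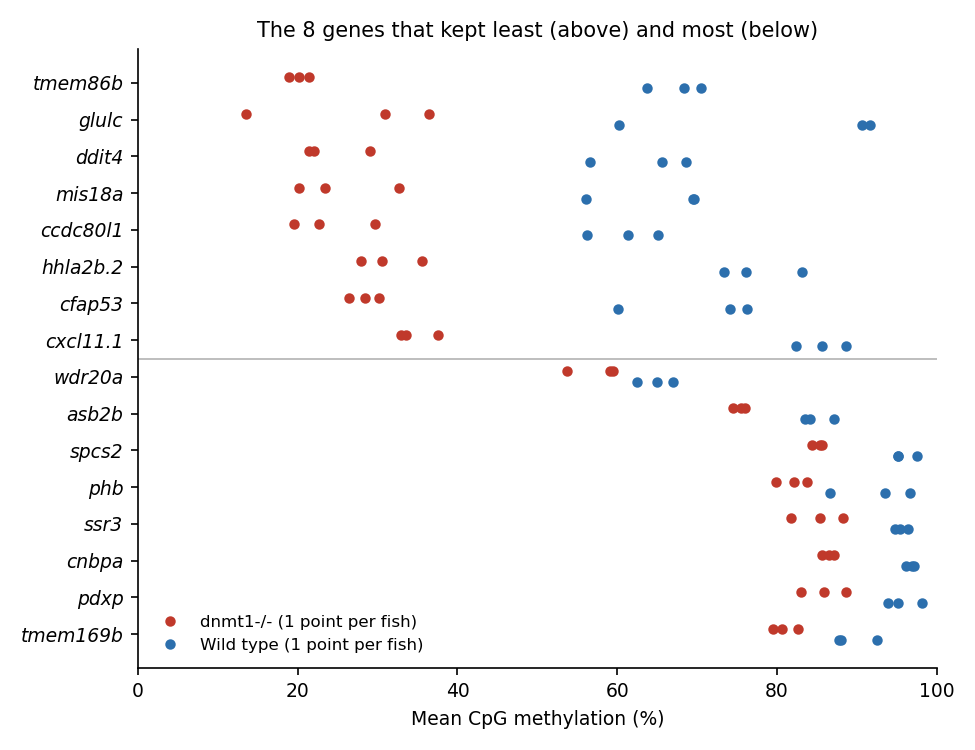
Mean CpG methylation in percent (horizontal axis) of the 8 genes that kept least (above) and the 8 that kept most (below), with 1 point per fish, 3 dnmt1-/- and 3 wild type. The dnmt1-/- points of the upper genes lie between 13.6% and 37.6%, and in every gene shown all of them lie left of the wild-type points.

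Gene groups are described by their counts beside those of all genes, of which 93.2% were called lower with a median share of 68.3%. Among genes of the DNA methylation machinery, 22 of 29 could be tested, 18 were lower and the median share was 70.4%. dnmt1 itself (chromosome 3, 54347001-54349000) had 51.5%, 54.7% and 44.4% in dnmt1-/- fish, against 86.1%, 88.9% and 85.7% in wild-type fish, a share of 57.8%. uhrf1 had 73.4%, 72.4% and 72.1% in dnmt1-/- fish, against 92.1%, 92.1% and 93.3% in wild-type fish, a difference of -19.8 points that missed the minimum of 20 points. The call of uhrf1 therefore turned on single fish, as it was made without mutant 1 (-20.2 points), wild-type fish 1 (-20.03) or wild-type fish 2 (-20.03). The lowest share was that of zbtb4, a reader of methylated DNA, with 34.4%, 34.5% and 31.5% in dnmt1-/- fish, against 63.7%, 61.8% and 61.8% in wild-type fish. The highest was that of mbd3a, a member of the methyl-CpG binding family (81.0%), which kept more than the genome. Without mutant 3, mbd3a was called lower (-20.1 points). The other members that did not pass were mbd2, a methyl-CpG binding protein, and tet1, a Tet oxidase.

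The lymphoid list, which the study's interest in T cells prompted, had 27 of 36 genes tested and 27 lower, with a median share of 64.3%. rag1, which with rag2 cuts antigen receptor genes for rearrangement, had 57.9%, 56.2% and 55.2% in dnmt1-/- fish, against 82.3%, 80.6% and 84.0% in wild-type fish. rag2 had 63.0%, 63.0% and 51.8% in dnmt1-/- fish, against 92.1%, 88.0% and 93.6% in wild-type fish. Both lay close to the genome in their share, at 68.6% and 64.9%. cd8a, the coreceptor of cytotoxic T cells, was the lowest with 43.3%, 43.5% and 44.3% in dnmt1-/- fish, against 84.1%, 83.1% and 85.9% in wild-type fish (51.8%). runx1, needed for blood stem cells, was the highest (78.6%), with -20.3 points, and its call was lost without mutant 2 (-17.8), wild-type fish 1 (-19.7) or wild-type fish 3 (-19.9). runx3 (chromosome 13, 44954001-45067000) had 56.9%, 58.5% and 57.6% in dnmt1-/- fish, against 84.1%, 84.6% and 83.6% in wild-type fish over 347 CpGs. rptor, the mTORC1 subunit Raptor (chromosome 6, 17423001-17699000), had 65.9%, 67.2% and 66.9% in dnmt1-/- fish, against 90.1%, 90.1% and 89.1% in wild-type fish over 836 CpGs. The fish of a genotype differed by less than 2 points in both, and the shares were 68.6% and 74.3%.

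Of other blood lineages, 8 of 14 genes were tested and 8 lower (median share 64.8%). The range ran from lyz, the lysozyme of myeloid cells, with 44.2%, 44.7% and 46.9% in dnmt1-/- fish, against 85.6%, 86.4% and 86.4% in wild-type fish (52.6%), to csf3r (73.5%). Of germline genes, 15 of 32 were tested and 14 lower, with a median share of 61.5%. The lowest share was that of rnf17, a Tudor domain gene of the germline. rnf17 had 41.6%, 42.8% and 45.2% in dnmt1-/- fish, against 89.3%, 86.6% and 87.0% in wild-type fish, and kept less than the genome (49.3%, limma adjusted p = 0.000191). dazl, an RNA binding protein of germ cells, kept 53.1% over 19 CpGs, and ddx4 (vasa) 64.0%. A dazl locus averaged by the authors had 69.9%, 48.9% and 59.1% in dnmt1-/- fish, against 80.8%, 80.4% and 84.1% in wild-type fish. That locus kept 72.5%, so the share of dazl depended on the CpGs used. brdt, a bromodomain gene of the testis, kept 78.9% and was not called, with a difference of -19.5 points.

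The list of developmental transcription factors was drawn by symbol and also took in tbxas1, a thromboxane synthase, and paxip1, which encodes a PAX-interacting protein. It had 83 of 85 genes lower and a median share of 63.1%. Relative to the genome, sox11a kept less (44.7%) and six9 kept more (83.8%). The lowest share was that of sox19a (41.3%), which was under 60% in wild type and was not tested against the genome. sox19a, of a group of neural and pluripotency factors, had 23.2%, 19.01% and 18.99% in dnmt1-/- fish, against 47.4%, 52.2% and 48.5% in wild-type fish. six9, an eye and muscle family homeobox gene, had 77.1%, 86.1% and 80.1% in dnmt1-/- fish, against 97.1%, 96.7% and 96.7% in wild-type fish, and was not called lower. The listed CpG density was 20.5 per kb at sox19a and 63.0 at six9.

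Genes that serve differentiated tissues covered a similar range. All 46 genes with a collagen-type symbol were called lower (median share 65.9%), from col28a1a (46.5%) to col4a3bpb (76.3%). Of these, col4a3bpa and col4a3bpb fit the symbol pattern but encode ceramide transfer proteins and not collagens. All 34 genes with a myosin-type symbol, among them myosin light chain kinases and the ubiquitin ligase genes mylipa and mylipb, were lower (65.8%), from mylpfa, a light chain of fast muscle, with 32.6%, 30.6% and 30.8% in dnmt1-/- fish, against 73.1%, 76.7% and 76.0% in wild-type fish (41.6%), to myha (76.9%). The windows of mylpfa lie on chromosome 3 (32681001-32688000), from 32 to 34 Mb. In that stretch, 8 windows were lower by over 55 points. Of its CpGs measured in each of the 3 dnmt1-/- fish, 14.1% had a value in no wild-type fish. The part of sequence differences in the value of mylpfa was not tested. All 10 keratin genes were lower (65.9%), with krt8 at 33.5%, 25.2% and 32.5% in dnmt1-/- fish, against 56.1%, 67.3% and 55.6% in wild-type fish. All 23 protocadherins, adhesion molecules of neurons, were lower (65.4%), from pcdh1g1 (53.6%) to pcdh10b (75.1%), and all 49 odorant receptors (67.0%), from or111-2 (46.9%) to or130-1 (76.3%). The calls of col4a3bpb (without mutant 2 or 3), myha (without mutant 1) and pcdh10b (without mutant 3, or over windows that overlap the gene only) were lost because the difference then fell short of 20 points.

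Genes with the symbol of a cytokine, a chemokine or a receptor of either had 56 of 59 lower (66.3%), from cxcl11.1 to cxcr2, a neutrophil chemokine receptor, with 77.0%, 74.6% and 76.9% in dnmt1-/- fish, against 92.9%, 89.5% and 92.6% in wild-type fish (83.1%). Ribosomal protein genes had 30 of 35 lower (68.7%), from rpl37 (46.4%, with windows on chromosomes 2 and 21 pooled under the symbol) to rpl5b. rpl5b had 82.8%, 80.8% and 80.5% in dnmt1-/- fish, against 95.7%, 91.2% and 92.6% in wild-type fish, and kept 87.3%. None of the listed genes was called higher, and in none did the genotypes overlap. Of all genes tested, 0.00572% were called higher, and in 99.8% all mutants lay below all wild-type fish. These counts therefore do not set the listed genes apart.

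The single gene called higher was CABZ01064968.1 on chromosome 22 (5136001-5144000), with 65.7%, 61.5% and 54.8% in dnmt1-/- fish, against 38.0%, 41.7% and 40.7% in wild-type fish (adjusted p = 0.00025, limma). The genotypes did not overlap, but the difference of 20.5 points fell short of the minimum without mutant 1 (18.0) or wild-type fish 1 (19.5).

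Windows that went against the general loss were gathered on chromosome 3, which carries dnmt1 at 54.3 Mb. Of the 25 windows called higher, 17 (68.0%) lay there, with 4.35% of all windows tested. They were not gathered beside dnmt1. Bins of 2 Mb held 2 of them from 16 to 18 Mb, 3 from 18 to 20 Mb and 3 from 22 to 24 Mb. Every other bin held at most 1, also that of dnmt1 from 54 to 56 Mb. Windows with the largest losses were also frequent on chromosome 3. Of 286 windows lower by over 55 points (0.0709% of windows), 49 (17.1%) were on chromosome 3 and 3 to 21 on each other chromosome. The bins with most of these losses held 5 from 30 to 32 Mb and 8 from 32 to 34 Mb, against 3 from 54 to 56 Mb. At an FDR under 5% without a minimum difference, 232 windows (0.0576%) were higher, and 22.0% of these were on chromosome 3. Without chromosome 3, 8 windows were higher, and no gene start was.

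The mutants also had values where wild-type fish had none on this chromosome. On chromosome 3, 10.6% of the CpGs measured in each of the 3 dnmt1-/- fish had a value in no wild-type fish, and the median of the other chromosomes was 3.43%. Conversely, 5.13% of the CpGs measured in each of the 3 wild-type fish had a value in no dnmt1-/- fish, and the median elsewhere was 1.24%. Chromosome 22 came next, with 6.13% and 3.09%. A value is missing where coverage was low or where the authors found a variant, and these cannot be told apart here. The share reached 24.5% for values in mutants only from 52 to 54 Mb, beside dnmt1, and values in wild type only made up 19.6% from 54 to 56 Mb, with dnmt1, and 21.1% from 56 to 58 Mb, their highest share. In sperm of other fish of the same genotypes, the share in mutants only was 19.8% from 52 to 54 Mb and that in wild type only 18.8% from 54 to 56 Mb. From 32 to 48 Mb, values in mutants only made up 13.2% to 20.4% in whole fish, and 0.463% to 7.39% in sperm.

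**Figure D5:**
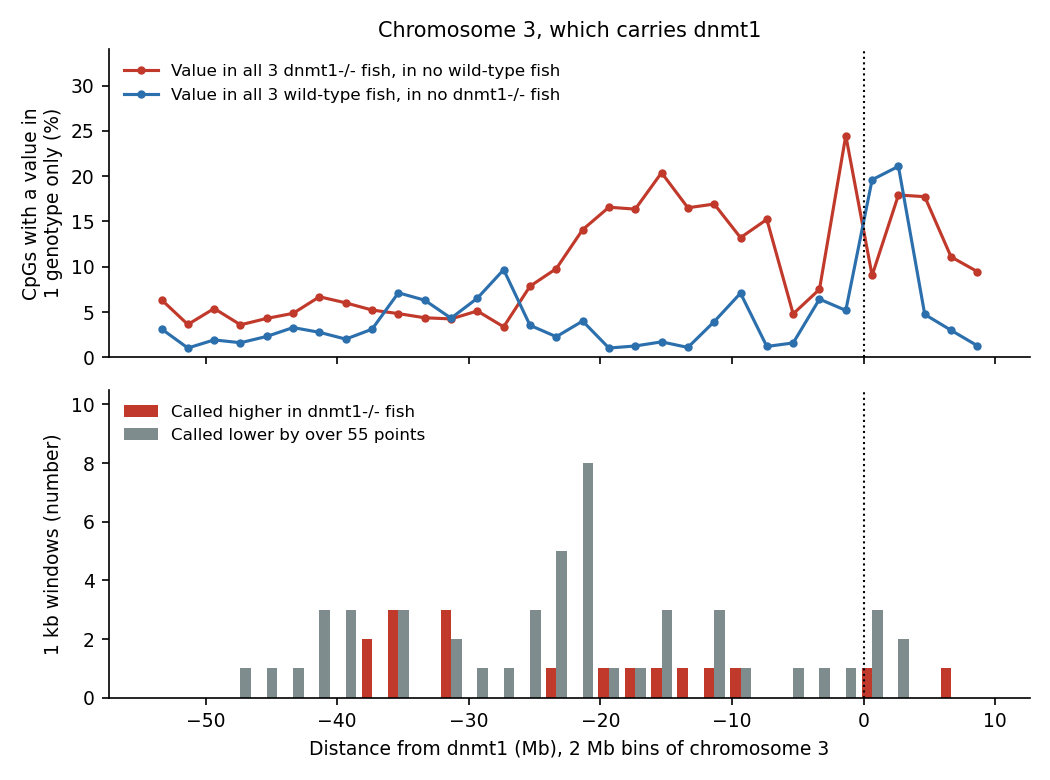
Upper panel, percent of CpGs measured in each fish of 1 genotype and in none of the other; lower panel, number of 1 kb windows called higher in dnmt1-/- fish or lower by over 55 points; both by distance from dnmt1 in Mb along chromosome 3, in 2 Mb bins. The dnmt1-/- line peaks at 24.5% just before dnmt1 and the wild-type line at 21.1% 2 to 4 Mb after it.

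Of the 25 windows called higher, 13 (52%) held at least 1 CpG of this kind, with 19.6% of all windows. Within chromosome 3, where 42.7% of windows held one, the counts were 8 of 17 windows called higher and 23 of 49 with losses over 55 points. A sequence difference between the genotypes, near dnmt1 or elsewhere, and a change of methylation cannot be told apart in these windows. The contribution of sequence variants, linked to dnmt1 or not, was not tested.

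The largest gain lay on chromosome 3 at 37682001-37683000, at the start of asic2, an acid-sensing ion channel gene of neurons. It had 44.5%, 65.1% and 59.6% in dnmt1-/- fish, against 1.98%, 0% and 2.23% in wild-type fish (adjusted p = 1.95e-05, limma). The groups did not overlap, and in sperm this window had 48.0% in mutants and 51.5% in wild type. The next, at 45019001-45020000 near dnajb1a, an Hsp40 cochaperone gene, had 62.4%, 51.8% and 58.5% in dnmt1-/- fish, against 7.84%, 4.89% and 2.67% in wild-type fish, with 61.2% in mutant and 3.24% in wild-type sperm. Of 21 windows called higher with at least 5 CpGs in sperm, mutant sperm was higher in 10, compared with 1.18% of all windows. These were 9 of 14 on chromosome 3 and 1 of 7 elsewhere.

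Outside chromosome 3, the largest gain was in CABZ01064968.1 on chromosome 22 (5143001-5144000), with 72.4%, 70.2% and 56.4% in dnmt1-/- fish, against 20.8%, 24.8% and 23.7% in wild-type fish. A window near zswim8 on chromosome 13 (21756001-21757000) had 39.7%, 32.4% and 49.99% in dnmt1-/- fish, against 14.8%, 10.1% and 11.7% in wild-type fish. In the CABZ01064968.1 window, 11 of 53 listed CpGs had a value in 1 genotype only, and near zswim8 0 did. Sperm went the other way in both windows. It had 44.9% in mutants and 56.5% in wild type at CABZ01064968.1, and 38.9% in mutants and 78.8% in wild type near zswim8. Of the 10 windows with the largest gain, 2 overlapped between genotypes. These were 16969001-16970000 on chromosome 3, in an interval 11876 bp from stat3, the signal transducer of cytokine receptors, and 3559001-3560000 on chromosome 21 near scamp1. The first lost its call without mutant 1 (28.4 points), mutant 3 (23.8), wild-type fish 1 (26.1) or wild-type fish 3 (21.8), and also when windows with at least 1 CpG were tested (29.9). The second lost it without mutant 3 (18.2) or wild-type fish 1 or 2 (20.4 each). Of the other 4, all on chromosome 3, the nearest genes included ifnphi1, a type I interferon, foxj1a, the regulator of motile cilia, and zgc:123297.

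The largest loss was also on chromosome 3, at 32398001-32399000 in si:ch73-367p23.2, with 0%, 0% and 0% in dnmt1-/- fish, against 94.2%, 94.6% and 97.0% in wild-type fish over 9 CpGs (adjusted p = 1.46e-05). The window beside it (32399001-32400000) had 2.51%, 0.986% and 1.51% in dnmt1-/- fish, against 76.2%, 69.9% and 72.6% in wild-type fish. A window near apnl (31137001-31138000) had 0.392%, 0.963% and 1.73% in dnmt1-/- fish, against 71.8%, 78.9% and 73.4% in wild-type fish. Large losses were rare, as 286 of 403104 windows (0.0709%) were lower by over 55 points. In sperm the window at 32398001-32399000 had 26.7% in mutants and 58.7% in wild type. Of the 10 windows with the largest loss, 8 were on chromosome 3, 1 was on chromosome 22 (2328001-2329000) and 1 was near ift57 on chromosome 2 (42370001-42371000).

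A separate deposited table gives the authors' mean level of 12 loci in each fish, without coordinates here. In 10 of the 12 loci all mutants lay below all wild-type fish (exact permutation p = 0.1 each). The same held for 96.6% of all windows and 99.8% of all genes tested, so this count does not set the loci apart. dnmt3, a de novo methyltransferase, had 22.3%, 26.4% and 13.2% in dnmt1-/- fish, against 62.1%, 65.95% and 58.96% in wild-type fish. This locus kept 33.1%. The study lists dnmt3 as another name of dnmt3bb.2. Pooled over 57 CpGs, the gene dnmt3bb.2 had 62.5% in dnmt1-/- fish and 87.2% in wild-type fish, and kept 71.7%. The low share of the locus therefore does not stand for the pooled windows of the gene. krt8 had 12.4%, 0% and 7.21% in dnmt1-/- fish, against 36.4%, 22.6% and 40.7% in wild-type fish. The genotypes overlapped at pou5f1, a pluripotency factor, with 11.3%, 5.30% and 13.1% in dnmt1-/- fish, against 5.65%, 10.3% and 11.7% in wild-type fish (p = 0.8, exact permutation), and at zgc92231 (p = 0.2). Both were low in dnmt1-/- fish, with no more than 16.5% in any of them.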

How the data were processed

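Each fish gave 2 libraries, from the TruSeq and EpiGnome kits, which the authors merged. According to the submitters' processing notes and the study's methods, reads were trimmed with cutadapt 1.9.1, mapped to bisulfite-converted danRer10 (GRCz10) with BWA 0.7.12, cleared of duplicates with Picard 1.136 and profiled with MethylDackel 0.1.7. The authors deposited fractions from 0 to 1 per CpG, with positions of low coverage or with a variant set to missing, and the same kind of fraction for 12 loci. Both are printed as percent. Missing sites were more frequent where CpGs are dense, and depth per CpG is unknown. The deposited table of sperm intervals was used for positions, the sign of the group difference, gene symbols and distances. Its coefficients and p-values hold the authors' own comparison and were not used.

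Levels were averaged over CpGs measured in each of the 6 fish. R 4.3.3 with limma 3.58.1 was used on 1 kb windows (at least 5 CpGs), genes (at least 10 CpGs, intervals within 5 kb) and gene starts (500 bp to either side) after logit transformation with an offset of 0.01, with Benjamini-Hochberg adjustment over all windows, genes or starts. Chromosomes and 1 Mb bins were tested on log2 levels relative to the mean of each fish, where limma pools the spread over units. Window fits were tested on simulated data with known changes. Window means of any 2 fish were equal (within 1e-09) in at most 0.606% of windows, so each fish was counted. Named genes are the first tested and the extreme members of each list, the 8 genes of lowest and highest share, the 10 windows of largest gain and loss, and genes the study names; gene starts were named after their values were seen. The members and lists were chosen with earlier results of these data known. The hox list had no gene with enough CpGs. Alternatives were other offsets, CpG minimums, window sizes, thresholds and scales, the replicate block and each fish left out; tests of gene starts and fits without chromosome 3 were added after seeing the data.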

Additional observations from a re-analysis of the deposited data

How the results depend on the processing

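No direction was reversed under any alternative run of the differences in level or share, or of the named genes, windows, chromosomes and bins. A count of calls has no direction, so only its size was compared. The test of genes relative to the genome had no alternative. The number of windows called lower was 83321 with at least 10 CpGs per window and 808484 with at least 1, and windows called higher numbered 232 without a minimum difference, 10 with at least 10 CpGs, 158 with at least 1, 16 with windows of 2 kb and 8 without chromosome 3. Windows that kept less numbered 1039 on the logit scale, 60795 without a minimum difference, 2740 with at least 10 CpGs and 102736 with at least 1; those that kept more numbered 2999, 85196, 12871 and 58096 under the same settings, and 17533 with windows of 2 kb. Genes called higher numbered 2 without a minimum difference. Gene starts called lower numbered 394 within 250 bp, and those called higher 2 when placed by at least 1 interval and 0 without chromosome 3. With bins of 5 Mb, 136 kept less and 132 kept more. Other CpG minimums, window or bin sizes, start widths, start placement and fits without chromosome 3 also changed how many features were tested. Counts under these settings can therefore not be set against the main counts, and the share called is not given here. The difference in retained share between the density extremes was 26.5 points by listed CpGs in 1 kb windows, 21.4 at CpGs of 80% or more in wild type, 16.8 at 90% or more and 24.6 with each fish over its own CpGs. The level difference was -32.9 points as a median over CpGs and -27.2 with each fish over its own CpGs. Before gene starts placed by at least 1 interval it was -12.1 points, and between interval classes in 2 kb windows it was 2.03 points.

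Leaving out 1 fish at a time gave 325593 to 328362 windows lower and 21 to 36 higher, 23649 to 32048 that kept less and 28285 to 32282 that kept more, 16215 to 16298 genes lower and 0 to 1 higher, 829 to 852 gene starts lower and 1 higher, 10 to 13 chromosomes that kept less and 10 to 11 more, and 612 to 631 bins that kept less and 548 to 569 more. The differences then ranged over 21.6 to 22.2 points by wild-type level, 25.1 to 25.7 by density and -28.2 to -28.0 in level. Same-numbered fish did not deviate together (correlations of -0.0127 to 0.0116), and neither did fish of different numbers (-0.0183 to 0.0206). These values gave no sign of pairing by number, but they cannot exclude it. With the replicate block, 329512 windows were lower and 25 higher, 30678 kept less and 29864 more, 16301 genes were lower and 1 higher, 850 gene starts lower and 1 higher, and 10 chromosomes kept less and 10 more. Depth per CpG limits all single-CpG values, but is not known.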
